A study of Rattus norvegicus with 6 samples.

Results

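The cytosolic ribosomal protein genes of rat liver were compared between a pair of wound dressings. Protein-coding rows were taken by symbol (Rpl or Rps with a number, Rplp0 to Rplp2 and Rpsa, without the Rps6k kinases) where at least 10 counts fell on the gene in at least 3 libraries. Of 101 rows with such a symbol, 93 met the count rule, out of 20104 genes in the table (16902 of them protein-coding). They comprised 77 canonical genes (43 of the large subunit, 31 of the small subunit and 3 of the stalk), 14 paralogs with a symbol ending in l or in l and a number, Rps4y2, and Rps19bp1, whose product binds a ribosomal protein and is not part of the ribosome. The 8 rows left out, Rpl22l2, Rpl30l1, Rpl31l2, Rpl39l, Rpl3l, Rps12l3, Rps12l4 and Rps15al2, are all paralogs, and none had 10 counts in more than 2 libraries. Just inside the rule, Rpl26l1 had 18, 26 and 14 counts in Quik-clot replicates 1 to 3 and 27, 15 and 25 in AKOC replicates 1 to 3. Just outside it, Rpl39l had 0, 1 and 14 counts against 0, 8 and 29.

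Liver tissue was collected on day 14 after trauma, and its transcripts were measured by RNA sequencing. In 3 samples the wound had been covered with AKOC, a name the labels leave unexplained, from work on a cotton dressing that carries kaolin. In the 3 control samples it had been covered with Quik-clot, a commercial haemostatic dressing. The comparison asked how the tissue differed between the dressings at that day. No uninjured liver was analysed here, and the strain, sex and age of the rats are not stated in the labels. Nothing in the labels ties the samples to separate animals. A p-value here therefore reflects only how far these samples spread, and that spread may be technical.

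Each ribosome joins a large and a small subunit, and each canonical ribosomal protein is needed in about equal number, so that their mRNAs are among the most abundant of most cells. These mRNAs share a 5′ terminal oligopyrimidine (TOP) tract, a C followed by a run of C or T at the first transcribed base, through which TOR signalling and the binding protein Larp1 set how strongly they are translated. In liver, ribosome production is known to rise during regeneration, when hepatocytes grow before they divide. A few ribosomal proteins also have paralogs, related genes whose products can take the place of the common form.

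The start of transcription is shown for 10 of these genes, chosen to set the copies described below beside members with a tract. The windows hold 20 bases before and 20 bases from the annotated start, 5′ to 3′ on the transcribed strand, from RefSeq on the GRCr8 build. Capitals mark a tract, defined as a C within 3 bases of the annotated start with at least 4 C or T directly after it. The large subunit gene Rpl10 lies at chrX:157205830-157205869 (plus strand), Rpl12 at chr3:36661920-36661959 (plus) and Rpl22 at chr5:168117941-168117980 (plus). The stalk gene Rplp0 lies at chr12:46718371-46718410 (minus). The small subunit genes Rps27 and Rps4x lie at chr2:177964587-177964626 (minus) and chrX:71342902-71342941 (minus). The copies lie at chr2:113683176-113683215 (Rpl22l1, plus), chr8:76443638-76443677 (Rps27l, plus), chr10:37332841-37332880 (Rpl30l2, minus) and chr4:183000893-183000932 (Rps4y2, plus).
Rpl10: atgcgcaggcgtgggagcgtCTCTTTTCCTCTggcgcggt
Rpl12: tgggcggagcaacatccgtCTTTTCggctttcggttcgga
Rplp0: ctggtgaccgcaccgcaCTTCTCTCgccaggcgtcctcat
Rpl22: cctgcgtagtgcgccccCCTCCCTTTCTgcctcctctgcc
Rpl22l1: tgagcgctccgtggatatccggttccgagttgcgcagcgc
Rps27: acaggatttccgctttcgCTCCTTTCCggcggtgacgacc
Rps27l: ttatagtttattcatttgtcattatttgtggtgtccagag
Rpl30l2: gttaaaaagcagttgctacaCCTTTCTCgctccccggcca
Rps4x: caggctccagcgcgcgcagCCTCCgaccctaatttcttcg
Rps4y2: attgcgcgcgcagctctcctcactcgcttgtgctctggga

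A tract of this kind was present at 37 of the 62 canonical starts that could be matched by NCBI Gene number (59.7%), against 1959 of 19005 protein-coding starts (10.3%). Among the paralogs it was present at 2 of 11 matched starts (18.2%), and among 13 matched starts of other mRNAs listed as TOP mRNAs at 3 (23.1%). Rpl22, Rps27 and Rps4x carried the tract, whereas no match was found in the windows of Rpl22l1, Rps27l and Rps4y2, and the copy Rpl30l2 carried one. In the longer windows of 250 bases before and 50 after the start, read on both strands, the letters CCGGAA (the core of ETS family sites) were present in 53.2% of canonical and 18.6% of all protein-coding windows. The letters AAGATGG (the core of YY1 sites) were present in 16.1% and 7.58%. Either motif can overlap the tract, which was read on the transcribed strand only, and the 2 motifs can share letters where they adjoin. A match describes letters in a window and depends on where the start is annotated.

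Library totals ran from 40402312 to 41455378 counts. Levels below are CPM, counts scaled to 1e+06 per library, after TMM scaling (trimmed mean of M values), whose factors ran from 0.902 in Quik-clot replicate 3 to 1.12 in Quik-clot replicate 1. Summed hepatocyte markers were high in every library (118485 to 188156 CPM over 10 genes, Alb and Apoa1 among them), as the liver label requires. Markers of other cells differed between libraries. The T and NK cell sum, over 10 measured markers of 12, was 48.8 CPM in Quik-clot replicate 2 and 13.4 to 17.1 in the others, with Trbc2 not in the table and Cd3d too low to be tested. The tested T and NK markers had negative fold changes in 10 of 10 cases (median log2 -1.01, AKOC over Quik-clot), and in 6 of 10 without Quik-clot replicate 2 (median -0.33). Macrophage markers had negative values in 10 of 11 cases (median -0.25), and in 8 of 11 without that library (median -0.05). The neutrophil sum was 105 CPM in Quik-clot replicate 3 and 6.92 to 46.7 in the others, with Mpo, Elane and Camp too low to be tested. The endothelial sum did not overlap between dressings (337 to 372 CPM with AKOC, 380 to 424 with Quik-clot). Of its 6 markers 4 had negative and 2 positive fold changes (median -0.24). By a narrow margin the T and NK cell sum did not overlap either (13.4 to 17.0 CPM with AKOC, 17.1 to 48.8 with Quik-clot). Of all genes tested, 8.84% did not overlap and were lower with AKOC. The part of these cells in the results below was not tested, and in bulk tissue fewer cells of a type and less RNA per cell cannot be told apart.

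The canonical ribosomal protein genes were among the most abundant transcripts of the liver, with 69 of 77 in the top 500 genes by FPKM (fragments scaled by transcript length and by library size). On this length-corrected scale their mean levels ran 17.7-fold, from 42.3 FPKM for Rpl22 to 748 FPKM for Rpl41, which encodes the shortest ribosomal protein. The median was 224 FPKM, with quartiles of 165 and 349. Rpl41, Rpl26 (549 FPKM) and Rpl10 (499 FPKM), the last encoding a protein that joins the large subunit late in its assembly, were the highest, and Rpl22, Rpl28 (82.7 FPKM) and Rpl15 (85.3 FPKM) the lowest. Large subunit genes had a median of 200.3 FPKM and small subunit genes one of 277 FPKM. These ranks and medians depend on the transcript lengths used, which were long for Rpl22, Rpl28 and Rpl15 (1883, 1565 and 1933 bases). By mean counts Rpl15 (6762) and Rpl28 (5307) lay above Rpl35a (1969 counts, 510 bases), which had 94.2 FPKM. The order of the 77 genes was nearly the same in every library, with Spearman correlations across genes of 0.957 to 0.983 over the 15 pairs of libraries. Genes are not independent replicates, and all libraries share each gene's length and sequence. The 14 paralogs had lower levels, from 0.651 FPKM for Rpl26l1 to 125 FPKM for Rpl36al1, with a median of 10.7 FPKM.

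**Figure D1:**
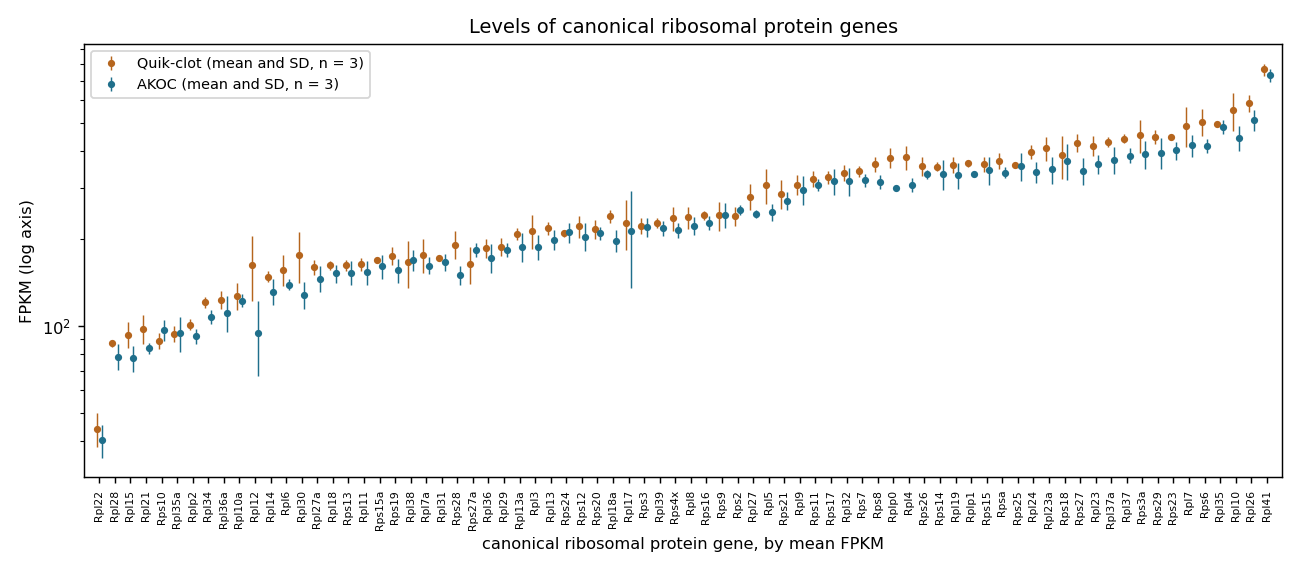
Level of 76 canonical ribosomal protein genes in FPKM (log axis), ordered by mean level, with points and bars for the mean and SD of 3 libraries per dressing. The order runs from Rpl22 to Rpl41, the dressings lie close together at most genes, and Rpl12, Rpl17 and Rpl30 have wide bars.

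Replicates of a dressing agreed about as closely for these genes as for others of their abundance. The SD within dressings of log2 CPM had a median of 0.18 over the canonical genes, 0.25 over all genes tested and 0.18 over the 2644 genes with a mean of at least 40 CPM. Rpl27, Rpl19 and Rpl21 varied least within dressings and Rpl12, Rps18 and Rpl17 most. The canonical genes moved largely as a block from library to library: once each library's median over them was subtracted, the median SD of a gene over the 6 libraries was 0.09. Only 4 genes kept an SD above 0.25 after that, namely Rpl12 (0.46), Rpl17 (0.35), Rpl30 (0.28) and Rpl38 (0.26). Rpl17, a protein that lines the exit tunnel of the ribosome, had 112, 163 and 204 CPM in Quik-clot replicates 1 to 3 and 134, 111 and 222 CPM in AKOC replicates 1 to 3. Its levels varied widely within each dressing, and the dressings overlapped over most of that range.

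The whole set stood highest in 1 library of each dressing. Relative to each gene's mean over the 6 libraries, the median canonical gene was at -0.05, -0.09 and 0.23 (log2 CPM) in Quik-clot replicates 1 to 3 and at -0.18, -0.03 and 0.11 in AKOC replicates 1 to 3. Of the 77 genes, 57 were highest in Quik-clot replicate 3 and 16 in AKOC replicate 3, and 48 were lowest in AKOC replicate 1. Quik-clot replicate 3 was also the library with the highest neutrophil sum and the smallest TMM factor (0.902). AKOC replicate 2, with a median of -0.03, had nearly the same factor (0.904), and AKOC replicate 3 had one of 0.95. Quik-clot replicate 3 and AKOC replicates 2 and 3 thus had both the highest medians and the smallest factors. The factors of the other libraries were 1.12 and 1.07 (Quik-clot replicates 1 and 2) and 1.08 (AKOC replicate 1). AKOC replicate 3, the second highest library, had a neutrophil sum of 11.6 CPM. The hepatocyte sum was 163783 CPM in Quik-clot replicate 3 and 165299 and 188156 CPM in AKOC replicates 2 and 3. It was 118485 to 125714 CPM in the other libraries. The part of the factor, of neutrophils and of hepatocytes in these levels was not tested. The order of the libraries depended on the scaling: by library totals alone the medians were 0.12, 0.01 and 0.08 against -0.07, -0.17 and 0.03, and 61 genes were lowest in AKOC replicate 2.

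**Figure D2:**
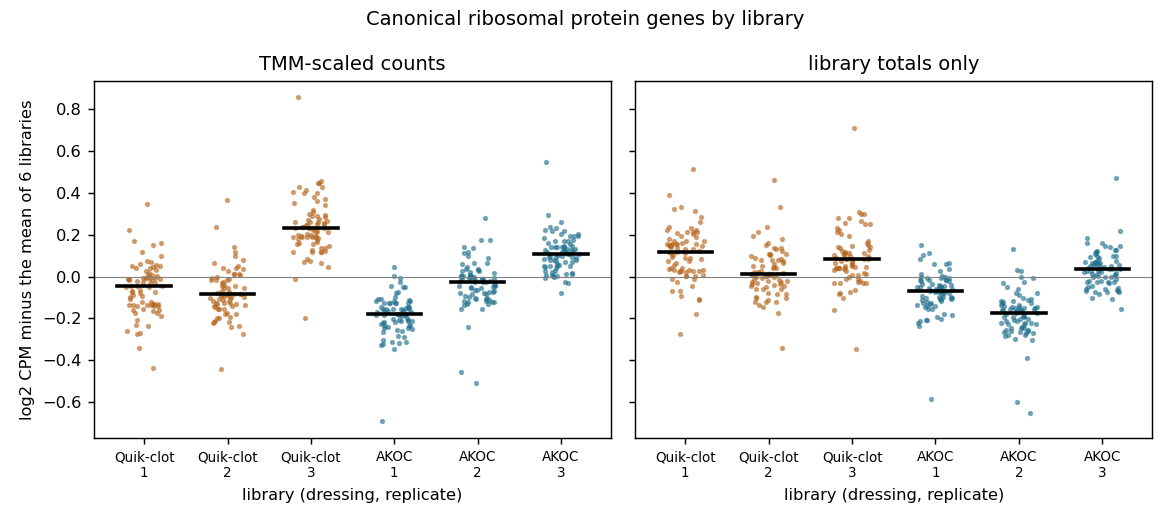
Each point is a canonical gene's log2 CPM in a library minus its mean over the 6 libraries, and each bar is the median of the 77 genes. With TMM scaling (left) Quik-clot replicate 3 stands highest at 0.23 and AKOC replicate 1 lowest at -0.18, and with library totals only (right) AKOC replicate 2 is lowest at -0.17.

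As a share of all counts, the canonical genes took 1.54%, 1.42% and 1.53% in Quik-clot replicates 1 to 3 and 1.34%, 1.24% and 1.43% in AKOC replicates 1 to 3. The highest AKOC library lay just above the lowest Quik-clot library, so the dressings overlapped. The means were 1.34% ± 0.0949 (SD, n = 3) with AKOC and 1.49% ± 0.0684 (SD, n = 3) with Quik-clot, a ratio of 0.897. The 95% Wilson intervals of the shares were at most 0.00377 percentage points to each side, which covers counting error only. The ratio was 0.879 for the large subunit and 0.928 for the small subunit. After TMM scaling the sums of the canonical genes were 13780 ± 1329 CPM (SD, n = 3) and 14648 ± 2015 CPM (SD, n = 3), a ratio of 0.941. The albumin mRNA alone held 7.02% (Quik-clot replicate 1) to 11.7% (AKOC replicate 3) of all counts, and its part in the share of the ribosomal protein genes was not tested.

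Gene by gene, the canonical ribosomal proteins differed little between the dressings. By the quasi-likelihood test of edgeR with Benjamini-Hochberg adjustment over 13872 genes, 0 of 77 passed an adjusted p of 0.05, with the lowest at 0.391, and 0% of all genes tested passed. DESeq2 also called 0 of them. At an unadjusted p under 0.05, 1 gene (Rpl12) was lower with AKOC and 0 were higher. Of all genes tested, 5.69% were lower and 6.78% higher. Among genes with a mean of at least 40 CPM the share lower was 6.77%. The count of 1 in 77 is thus below the background in both directions. The libraries of the dressings did not overlap for 1 canonical gene lower with AKOC (Rpl27) and 0 higher, against 8.84% and 9.53% of all genes tested.

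The intervals of the differences were narrow for most of the set. The log2 fold change, AKOC over Quik-clot, was within 0.25 of zero for 72 of 77 canonical genes (93.5%, against 56.3% of all genes tested and 63.9% of those with a mean of at least 40 CPM). The 95% confidence interval lay within a 1.5-fold change in either direction for 66 of 77 (85.7%, against 38.3% and 56.8%). The median standard error (SE) was 0.14. The range ran from -0.72 for Rpl12 to 0.23 for Rps27a. Most signs were negative: 56 of 77 genes (72.7%) against 52.0% of all genes tested, with a median of -0.06 against -0.01. With library totals only, 7 were positive and the median fell to -0.13, but the median of all genes moved by -0.08 with it. Relative to all genes the canonical median was -0.04 under either scaling. With TMM scaling the lean to negative signs depended on which libraries were kept. Without Quik-clot replicate 3 the median was 0.05 with 51 positive genes, and without AKOC replicate 1 it was 0.02 with 44 positive genes. Leaving out any other library left 62 to 71 of the 77 genes negative.

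**Figure D3:**
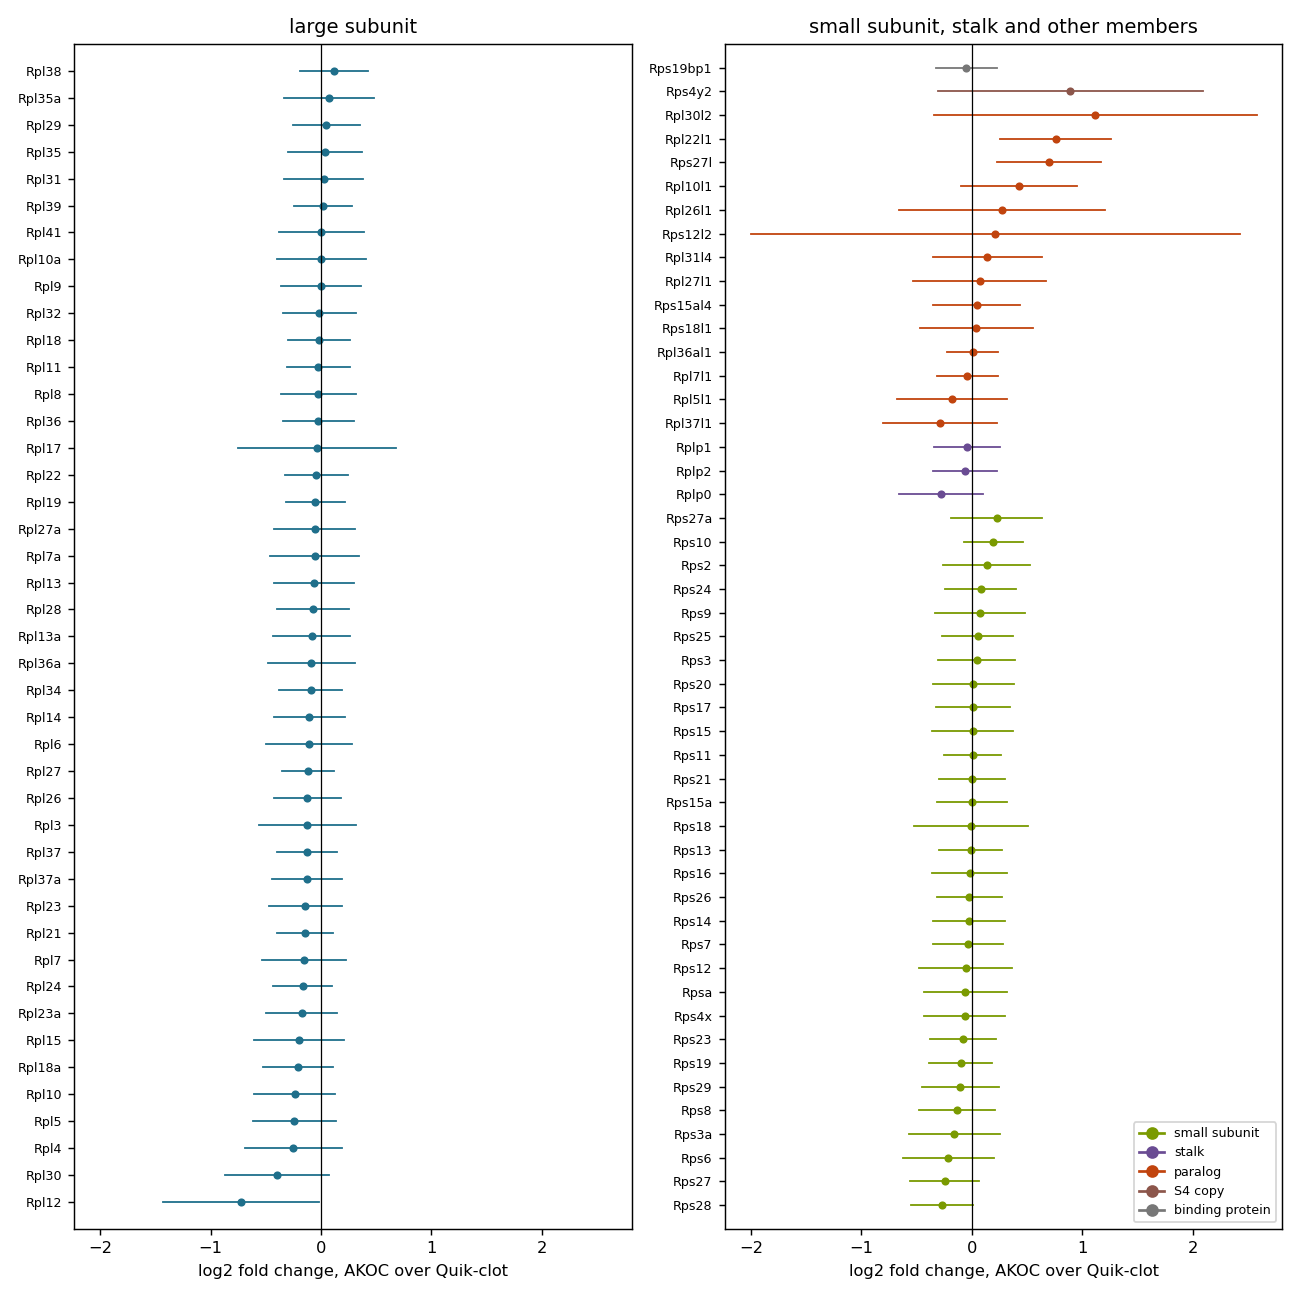
Log2 fold change of 92 of the genes, AKOC over Quik-clot, with its 95% confidence interval from the edgeR fit. Canonical genes of the large subunit (left), small subunit and stalk lie between -0.72 and 0.23, most of them near zero. The interval of Rpl12 ends just below zero (-0.02). The copies Rps27l and Rpl22l1 stand to the right with intervals that do not reach zero.

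In the large subunit, 34 of 43 genes had negative and 9 positive fold changes, with a median of -0.08. Rpl12, a protein at the base of the stalk where elongation factors bind, had the largest difference. Its levels were 178, 126 and 253 CPM in Quik-clot replicates 1 to 3 and 86.3, 98.1 and 153 CPM in AKOC replicates 1 to 3. The AKOC libraries held the 2 lowest values, but AKOC replicate 3 lay above Quik-clot replicate 2. The log2 fold change was -0.72 ± 0.30 (SE), with an adjusted p of 0.391 in the edgeR test, and it ranged from -1.01 without AKOC replicate 3 to -0.44 without Quik-clot replicate 3.

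The other large subunit genes with known special roles had smaller differences. Rpl4, which reaches into the exit tunnel, had 457, 458 and 646 CPM with Quik-clot and 381, 457 and 475 CPM with AKOC, a log2 fold change of -0.25 ± 0.19 (SE), and Quik-clot replicate 3 stood apart from the other libraries. Rpl5 and Rpl11, which with the 5S RNA can bind the p53 regulator Mdm2, had log2 fold changes of -0.24 ± 0.16 and -0.02 ± 0.12 (SE). Rpl23, which can also bind Mdm2, had -0.14 ± 0.14 and Rpl26, which binds the mRNA of p53, -0.12 ± 0.13. Rpl3, which lies close to the centre where peptide bonds form, had -0.12 ± 0.19, and Rpl13a, known for a role in translational silencing outside the ribosome, -0.08 ± 0.15. Rpl38, known for its part in the translation of Hox mRNAs, had the largest positive value of the subunit at 0.12 ± 0.13 (SE). The dressings overlapped for each of these genes. Rpl27 did not: it had 126, 123 and 128 CPM with Quik-clot and 106, 120.1 and 120.5 CPM with AKOC. The gap between the groups was small beside the spread, and the log2 fold change was -0.12 ± 0.10 (SE), with adjusted p = 0.639 by edgeR.

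In the small subunit, 19 of 31 genes had negative and 12 positive fold changes, with a median of -0.02. Rps28, a small protein of this subunit, had 57.3, 67.4 and 64.0 CPM in Quik-clot replicates 1 to 3 and 46.7, 52.1 and 57.7 CPM in AKOC replicates 1 to 3. Only the highest AKOC library and the lowest Quik-clot library crossed, and the log2 fold change was -0.27 ± 0.12 (SE), adjusted p = 0.405 by edgeR.

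Rps6, the substrate of S6 kinase downstream of TOR, had a log2 fold change of -0.21 ± 0.17 (SE), from 365, 335 and 494 CPM with Quik-clot and 317, 348 and 367 CPM with AKOC. Rps27a, made as a fusion with ubiquitin, had the largest positive value of all canonical genes: 171, 138 and 216 CPM with Quik-clot and 187, 207 and 221 CPM with AKOC, a log2 fold change of 0.23 ± 0.18 (SE), adjusted p = 0.608 by edgeR. The AKOC libraries were close together, and Quik-clot replicate 3 reached into their range. Rps10, Rps2, Rps24 and Rps9 followed with 0.19, 0.13, 0.08 and 0.08. Rps3, which with Rps2 and Rps9 surrounds the entry of the mRNA channel, had 0.04 ± 0.15 (SE). Rps14, Rps19, the gene most often mutated in Diamond-Blackfan anaemia, Rps20 and Rpsa, also known as a laminin receptor, had -0.02, -0.10, 0.01 and -0.06, each with overlapping dressings. Rps18 had -0.01 ± 0.22 (SE) and the widest spread of the subunit, with 285 CPM in Quik-clot replicate 3 and 251 CPM in AKOC replicate 3 against 177 to 200 CPM in the other libraries.

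The stalk of the large subunit, which recruits the elongation factors, is formed by Rplp0 with Rplp1 and Rplp2. Rplp0 had 383, 354 and 486 CPM in Quik-clot replicates 1 to 3 and 302, 358 and 349 CPM in AKOC replicates 1 to 3. AKOC replicate 2 lay just above Quik-clot replicate 2, and the log2 fold change was -0.28 ± 0.16 (SE), adjusted p = 0.504 by edgeR. Rplp1 and Rplp2 had -0.04 ± 0.13 and -0.06 ± 0.12 (SE). Rpl12, to which the stalk is joined, and Rplp0 thus both had negative values, of which neither passed the adjustment. Of the ribosomal proteins with other symbols, Fau had -0.14 and Rack1, a scaffold on the small subunit, -0.08.

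The paralogs ranged from -0.29 (Rpl37l1) to 1.12 (Rpl30l2) in log2 fold change. Of 14, 11 had positive and 3 negative fold changes, with a median of 0.11. With library totals only 6 were negative and the median was 0.03, and leaving out Quik-clot replicate 2 gave 0.04 and leaving out AKOC replicate 3 gave 0.01. Of the 14, 2 (14.3%) were higher with AKOC at an unadjusted p under 0.05 in the edgeR test, where the background was 6.78%. Of these 2, neither passed the adjustment. They were Rps27l, whose gene is a known target of p53, and Rpl22l1, whose level the protein Rpl22 is known to restrain.

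Rps27l (NCBI Gene 681429) had 34.6, 53.9 and 35.8 CPM in Quik-clot replicates 1 to 3 and 76.2, 56.5 and 68.9 CPM in AKOC replicates 1 to 3. Every AKOC library was above every Quik-clot library, although Quik-clot replicate 2 and AKOC replicate 2 differed by little. The log2 fold change was 0.70 ± 0.20 (SE), with adjusted p = 0.312 by edgeR. It ranged from 0.58 to 0.93 when a library was left out, and the unadjusted p stayed under 0.05 in all 6 of those fits. Its canonical partner Rps27 had 136, 145 and 149 CPM with Quik-clot and 103, 121 and 139 CPM with AKOC, a log2 fold change of -0.24 ± 0.13 (SE). Of the summed FPKM of the pair, Rps27l took 10.02%, 14.0% and 9.47% with Quik-clot and 24.4%, 17.0% and 17.8% with AKOC. The shares did not overlap, with means of 11.2% ± 2.48 and 19.7% ± 4.05 (SD, n = 3). On the log2 ratio of the pair's FPKM values the exact two-sided permutation p was 0.1, the smallest that 3 against 3 allows. After adjustment over the 15 pairs compared, this permutation p was 0.5.

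Rpl22l1 (NCBI Gene 361923) had 13.2, 21.0 and 21.9 CPM in Quik-clot replicates 1 to 3 and 26.9, 32.1 and 36.1 CPM in AKOC replicates 1 to 3. The groups were apart, and Quik-clot replicate 1 was the lowest by a wide margin. The log2 fold change was 0.76 ± 0.21 (SE), with adjusted p = 0.309 by edgeR, and it ranged from 0.56 without Quik-clot replicate 1 to 0.89 without Quik-clot replicate 3, again under 0.05 unadjusted in all 6 fits. Rpl22 itself had 83.3, 79.7 and 78.6 CPM with Quik-clot and 70.7, 73.4 and 90.7 CPM with AKOC, a log2 fold change of -0.04 ± 0.12 (SE). The share of Rpl22l1 in the FPKM of the pair was 34.5%, 46.7% and 48.1% with Quik-clot and 55.9%, 59.3% and 57.0% with AKOC. By FPKM the paralog thus made up the larger part of the pair in each AKOC library and the smaller part in each Quik-clot library. This depends on the transcript lengths used for FPKM, 1883 bases for Rpl22 and 566 for Rpl22l1. In CPM, which is not scaled by length, Rpl22 was the higher of the pair in every library. The exact permutation p on the log2 ratio was again 0.1 (0.5 after adjustment over the pairs).

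**Figure D4:**
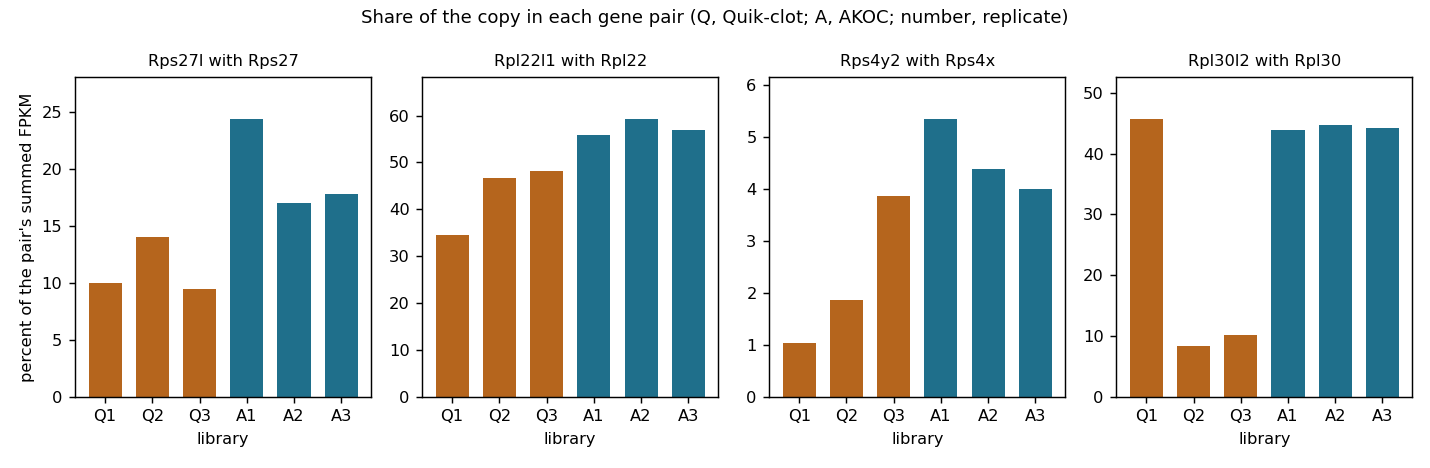
Percent of a gene pair's summed FPKM that falls on the copy, for 4 pairs, with a bar per library (Q, Quik-clot; A, AKOC). The AKOC bars stand above all Quik-clot bars for Rps27l, Rpl22l1 and Rps4y2, while Rpl30l2 is near 45% in 4 libraries and at 8.41% and 10.2% in Quik-clot replicates 2 and 3.

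Rpl30l2 (NCBI Gene 100362027), a copy of Rpl30, was either high or low. It had 49.9, 8.48 and 11.2 CPM in Quik-clot replicates 1 to 3 and 45.2, 49.2 and 56.9 CPM in AKOC replicates 1 to 3, so that Quik-clot replicate 1 lay with the AKOC libraries. The log2 fold change was 1.12 ± 0.62 (SE), adjusted p = 0.490 by edgeR, with a range of 0.72 without Quik-clot replicate 2 to 2.36 without Quik-clot replicate 1. Rpl30, which is a large subunit protein, ran the other way. Its levels were 86.7, 135 and 144 CPM with Quik-clot and 84.4, 88.7 and 105 CPM with AKOC, a log2 fold change of -0.40 ± 0.20 (SE), adjusted p = 0.450 by edgeR. The sum of the pair stayed between 130 and 162 CPM, a 1.25-fold range, while Rpl30l2 spanned 6.71-fold and Rpl30 1.71-fold. The gene span of Rpl30l2 on GRCr8 is as long as its transcript (482 bases), so it has no intron there. The counting may have split reads between such close copies, which was not tested, and the values of either gene alone are uncertain.

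Other copies lack an intron too, and whether their reads were split with their partners was not tested. Of the 14 paralogs, 7 have a gene span on GRCr8 equal to the transcript length within 5%, namely Rpl10l1, Rpl27l1, Rpl30l2, Rpl37l1, Rpl5l1, Rps12l2 and Rps15al4, whereas Rps27l and Rpl22l1 have introns (spans 6.28 and 3.42 times the transcript length). Rpl10l1 had a log2 fold change of 0.43 ± 0.22 (SE), adjusted p = 0.463 by edgeR, and Rpl37l1 one of -0.29 ± 0.22. Rps12l2 had 101, 21 and 10 counts with Quik-clot and 64, 6 and 71 counts with AKOC, so that both dressings held high and low libraries. Rpl26l1, Rpl31l4, Rpl27l1, Rps15al4, Rps18l1 and Rpl36al1 had values of 0.28, 0.14, 0.07, 0.05, 0.04 and 0.01, and Rpl5l1 and Rpl7l1 of -0.18 and -0.04. Rpl36al1 stood out by its level, with a mean FPKM of 122 ± 8.10 with AKOC and 128 ± 16.0 with Quik-clot (SD, n = 3), beside 111 ± 15.8 and 123 ± 8.83 for Rpl36a. The canonical partners not yet described, Rpl37, Rpl31, Rpl7, Rpl36a, Rps15a and Rps12, had log2 fold changes of -0.12, 0.02, -0.16, -0.09, -0.00056 and -0.06.

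Rps4y2 is named as a Y-linked copy of Rps4x, but RefSeq places it on chromosome 4 of GRCr8, with no intron. It had 2.20, 3.46 and 10.2 CPM in Quik-clot replicates 1 to 3 and 10.4, 9.61 and 9.31 CPM in AKOC replicates 1 to 3, so that Quik-clot replicate 3 lay among the AKOC libraries. The log2 fold change was 0.89 ± 0.51 (SE), adjusted p = 0.499 by edgeR, and ranged from 0.52 without Quik-clot replicate 1 to 1.79 without Quik-clot replicate 3. Rps4x had 239, 207 and 287 CPM with Quik-clot and 209, 238 and 254 CPM with AKOC. The share of Rps4y2 in the FPKM of the pair was 1.04%, 1.86% and 3.87% with Quik-clot and 5.35%, 4.39% and 4.01% with AKOC, without overlap but with Quik-clot replicate 3 close to AKOC replicate 3. Rps19bp1 had a log2 fold change of -0.05 ± 0.12 (SE).

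Lists of other genes of ribosome production and translation had mostly negative fold changes, and 0 of their members passed the adjustment by edgeR. Of 37 ribosome assembly genes, 33 had negative fold changes, with a median of -0.24 beside -0.01 for all genes tested. At an unadjusted p under 0.05, 9 were lower and 0 higher (backgrounds 5.69% and 6.78%). Across the fits that left out a library, 30 to 33 stayed negative and 2 to 14 were lower at that threshold, the 2 without AKOC replicate 2. Heatr1, a part of the small subunit processome, had 14.95, 15.2 and 19.5 CPM in Quik-clot replicates 1 to 3 and 12.4, 9.50 and 10.7 CPM in AKOC replicates 1 to 3. The libraries were apart, with a log2 fold change of -0.61 ± 0.16 (SE), adjusted p = 0.304 by edgeR. The T and NK cell and macrophage markers described above also had negative medians. So did the markers of endothelial cells (-0.24), hepatocytes (-0.19), cholangiocytes (-0.61), neutrophils (-0.22) and B and plasma cells (-0.08). Those of erythroid cells (1.23), stellate cells (0.14) and proliferation (0.24) had positive medians. Without Quik-clot replicate 2, 33 of 37 assembly genes were negative with 9 lower, and 18 of 18 other TOP mRNAs were negative with 8 lower. In that fit each marker list with a negative median kept one, among them T and NK cells (-0.33) and endothelial cells (-0.29). The part of these cells in the values of the lists was not tested. Wdr12, Wdr43 and Rrp12, further assembly factors, had -0.45, -0.59 and -0.72, each without overlap.

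Of 18 other mRNAs listed as TOP mRNAs from general knowledge, mainly elongation factors and subunits of the initiation factor eIF3, 18 had negative values, and the median was -0.22. Of these, 6 were lower and 0 higher at an unadjusted p under 0.05 (backgrounds 5.69% and 6.78%), and without Quik-clot replicate 3 there were 2 lower and 15 negative. Eif4b, a partner of the helicase that unwinds mRNA leaders, had 234, 141 and 219 CPM with Quik-clot and 123.5, 121 and 123.3 CPM with AKOC, a log2 fold change of -0.69 ± 0.19 (SE), adjusted p = 0.306 by edgeR. The AKOC libraries were nearly equal, and Quik-clot replicate 2 lay nearest to them. Nap1l1, a histone chaperone, Npm1, a nucleolar protein, and Eif3e had -0.55, -0.40 and -0.34, also without overlap.

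Of 29 other initiation factors, 21 were negative, with a median of -0.10, and 3 were lower at an unadjusted p under 0.05, where the background was 5.69% (1 without Quik-clot replicate 3, without AKOC replicate 2 or without AKOC replicate 3): Eif3g (-0.45), Eif3j (-0.29) and Eif3m (-0.29). Eif2s3, a subunit of the factor that brings the initiator tRNA, had -0.27 with adjusted p = 0.434 by edgeR. RNA polymerase I, which transcribes the ribosomal RNA, and its factors had 10 of 15 negative, with a median of -0.13 and 4 lower at the same threshold and background (1 without AKOC replicate 3). They were the subunits Polr1b (-0.62) and Polr1g (-0.82), the initiation factor Rrn3 (-0.27) and Taf1d (-0.60).

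The regulators were mixed, with 12 of 24 tested genes negative, a median of 0.01, 1 lower and 2 higher at an unadjusted p under 0.05, and Mycn too low to be tested. These shares are near the backgrounds of 5.69% and 6.78%. Larp4, which binds poly(A) tails and stabilises mRNAs, had 67.1, 56.6 and 72.4 CPM with Quik-clot and 47.6, 42.7 and 45.9 CPM with AKOC, a log2 fold change of -0.52 ± 0.12 (SE), adjusted p = 0.281 by edgeR. Mxd4, a partner of Max that opposes Myc, had 35.8, 43.0 and 38.3 CPM with Quik-clot and 53.1, 55.1 and 51.8 CPM with AKOC, a log2 fold change of 0.45 ± 0.11 (SE), adjusted p = 0.281 by edgeR. DESeq2 called these 2 genes and no other member of the lists, and 2.09% of the 13849 genes to which it gave an adjusted p. Both dressings were tight and apart for each of them. Tsc2, which inhibits TOR, had 0.33 and the kinase Rps6ka3 had -0.30.

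**Figure D5:**
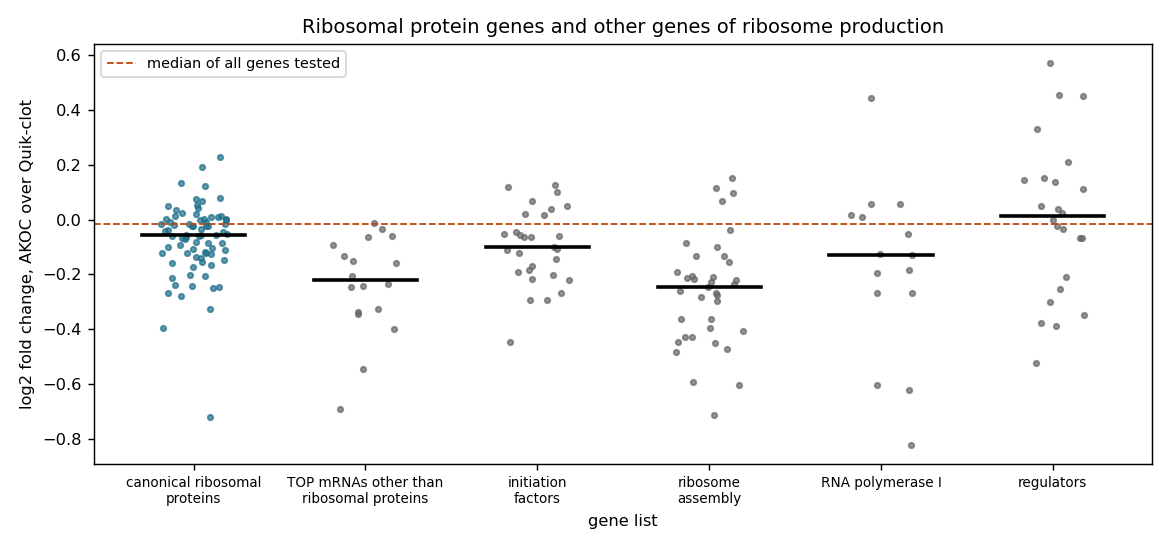
Log2 fold change, AKOC over Quik-clot, of each gene of 6 lists, with a bar at the list's median and a dashed line at the median of all genes tested (-0.01). Ribosome assembly genes and the other TOP mRNAs have medians of -0.24 and -0.22, and canonical ribosomal protein genes one of -0.06.

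The genes whose pattern over the 6 libraries was most like that of the canonical genes were sought among 8986 genes with a mean of at least 5 CPM. Likeness was the Pearson correlation of log2 CPM with the mean standardised pattern, as a description over 6 libraries that share their scaling. The closest were Arhgap5 (0.997), the gap junction gene Gjb2 (0.977), Extl3 (0.974), the phosphate exporter Xpr1 (0.974), the copper transporter Atp7b (0.971) and Mcfd2 (0.960). Their levels were highest in Quik-clot replicate 3, like the median of the canonical genes, which follows from how they were chosen.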

How the data were processed

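RNA of 6 rat liver samples, 3 per dressing, was sequenced. The authors deposited raw counts per gene, as whole numbers, and FPKM values of the same genes in a second table. The transcript length implied by the FPKM values was constant over libraries to a relative difference of 8.76e-07, and the tables are thus one measurement on 2 scales. Per the submitters' processing notes, fastp, HISAT2, HTSeq and the mRatBN7.2 build were used. The labels state no versions, annotation, parameters or use of strand. Reads of near-identical copies may therefore have been split or lost, and reads of overlapping antisense genes cannot be told apart. Start windows and gene spans come from RefSeq on GRCr8, a build other than the authors', and serve for sequence description only.

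Counts of 13872 genes kept by filterByExpr (minimum count 10, minimum total 15) were scaled by TMM and tested by the two-sided quasi-likelihood test (edgeR 4.0.16, R 4.3.3) on dressing alone, with Benjamini-Hochberg adjustment over these genes and a threshold of 0.05. All 93 ribosomal protein genes were kept. SE is the log2 fold change divided by the square root of F. The fit had a biological coefficient of variation of 27.2% and 3.19 prior degrees of freedom. Log2 CPM used a prior count of 2. No 2 libraries of a dressing agreed within sampling noise. Alternatives included limma-voom with sample weights (limma 3.58.1), DESeq2 1.42.0, other scalings and filters, limma on log2(FPKM + 1) and log2(FPKM + 0.1), the replicate block, and leaving out each library. The edgeR test was tested on simulated data of 13872 genes for this comparison, with 200 changed: 31% of the 2-fold and 80% of the 4-fold changes were recovered beside 9 false calls, and data without change gave 0 calls.

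The members, lists and tests were chosen with earlier results of these data known. Genes were named by rule: all paralogs, the stalk, a panel of 17 canonical genes, the canonical genes with the extreme fold changes, smallest p, levels and spread, partners of paralogs, and up to 4 genes of smallest p per list. Some genes that this rule names are not reported here. Rps4y2 and Rps19bp1 were set apart from the canonical genes after seeing the data. The CPM sums of the marker lists not given in the report ranged from 66.6 to 118 (AKOC) and 83.5 to 107 (Quik-clot) for B and plasma cells, 832 to 1191 and 1006 to 1585 for macrophages, 728 to 1515 and 49.0 to 950 for erythroid cells, 174 to 231 and 88.9 to 209 for stellate cells, 15.6 to 20.7 and 14.1 to 25.2 for cholangiocytes, and 25.3 to 30.0 and 19.5 to 29.2 for proliferation.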

Additional observations from a re-analysis of the deposited data

How the results depend on the processing

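No canonical ribosomal protein gene passed the adjusted threshold under any of the alternatives run. The number lower at an unadjusted p under 0.05, 1 in edgeR with TMM, was 4 with library totals only and 2 with limma on log2(FPKM + 1) and on log2(FPKM + 0.1), and it ran from 0 to 3 when a library was left out. The number higher, 0 in the same fit, ran from 0 to 2, the 2 without Quik-clot replicate 3. The number with a positive fold change, 21, was 7 with library totals only, 6 with log2(FPKM + 1) and 6 with log2(FPKM + 0.1), and ran from 6 to 51 when a library was left out. The median log2 fold change ran from -0.14 without AKOC replicate 3 to 0.05 without Quik-clot replicate 3, and the cause was not tested. The difference in the summed share, -0.155 percentage points of counts, was -0.422 percentage points of FPKM, whose total weights short transcripts more, and ran from -0.202 to -0.107 when a library was left out. In the related lists DESeq2 called 2 genes and edgeR 0.

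With the replicate number as a block, 0 canonical genes were called, 1 was lower at an unadjusted p under 0.05, 22 were positive and the median was -0.05. In the same block fit, 3 of the 18 other TOP mRNAs (6 without it), 5 of the 37 assembly genes (9) and 1 of the 29 initiation factors (3) were lower at that threshold. Libraries with the same number did not deviate together (correlations of -0.0719, -0.0822 and -0.201), so the numbers were not taken as pairs.

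Of 83 named genes, 51 kept their sign under all 17 alternatives, and none of the 21 with an unadjusted p under 0.05 changed sign. Genes were named in part for a small p, and the alternatives used the same libraries, so a kept sign is not independent support. Counting Rps4y2 and Rps19bp1 as canonical, chosen after seeing the data, gave 22 positive genes. The canonical genes had 1804 to 23901 counts per library, Rpl26l1 14 to 27 and Rps12l2 6 to 101, so counting error is larger for the latter 2.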
